A study of Mus musculus with 5 samples.

Results

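The mitochondrial ribosomal protein genes are the 78 genes of the deposited table whose symbols begin with Mrpl or Mrps and a number, out of 13004 genes listed. The 49 Mrpl genes are named for the large subunit of the mitochondrial ribosome and the 29 Mrps genes for the small subunit. All 78 passed the filter on low values described below. The mitochondrial ribosome translates the messages of the mitochondrial genome, which encode core parts of the respiratory chain and of ATP synthase. Its RNAs are made inside the organelle, whereas every one of its proteins is encoded in the nucleus, translated in the cytosol and imported. Some of these proteins have counterparts in bacterial ribosomes and others occur only in mitochondria. MYC, a transcription factor, is known as an activator of genes for ribosome production and for mitochondrial function in dividing lymphocytes.

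RNA came from natural killer (NK) cells, lymphocytes of innate immunity, sorted from the spleens of C57BL/6 mice aged 8 weeks as live cells lacking CD3 and carrying NK1.1 and DX5. The MycKO group had 2 libraries (5 and 6), of genotype Mycdelta/delta/Ncr1Cre, in which Cre recombinase driven by the NK receptor gene Ncr1 deletes Myc. The control group had 3 libraries (1, 2 and 3), of genotype Mycf/f, with Myc alleles flanked by loxP sites. The labels do not state whether the controls carried Cre, and no label ties a library to its own animal. The p-values therefore rest on the spread between these 5 libraries, which may be technical. Myc was measured at 12.5 and 8.70 RPKM (reads scaled by gene length and by library size) in MycKO 5 and 6, against 13.0, 22.97 and 21.2 RPKM in controls 1, 2 and 3. The log2 fold change was -0.77 (SE 0.28; adjusted p = 0.297 in limma), and the labels do not give which exons were deleted, so these values can hold reads from outside them.

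Reads in the listed genes totalled 5451728 and 13337084 in MycKO 5 and 6 and 15050801, 17610826 and 14290690 in controls 1, 2 and 3. The members took 0.233% and 0.219% of the reads in MycKO 5 and 6, against 0.223%, 0.210% and 0.222% in controls 1, 2 and 3. The median member had 149 reads in MycKO 5 and 328.5 reads in MycKO 6, against 381 to 420.5 reads in controls. RNA of NK cell markers was present in all 5 libraries. Gzma, the most abundant of 10 NK markers, was at 4699 and 5620 RPKM in MycKO and 6584 to 7251 RPKM in controls. Ncr1, whose gene drives Cre in MycKO, was at 633 and 744 RPKM in MycKO and 931 to 1619 RPKM in controls. Its log2 fold change of -0.84 was the lowest of the 10, of which 8 were lower and 2 higher (Klrb1c at 0.05 and Klrd1 at 0.03). Any effect of the Cre allele on Ncr1 RNA was not tested. The 10 NK markers summed to 9823 and 11623 RPKM in MycKO and 12561 to 14749 RPKM in controls, and limma called 0 of them (6 at an unadjusted p under 0.05, 3 called by limma-voom and 4 in the authors' deposited table). Markers of other cell types differed too. The 12 myeloid markers measured summed to 2030 and 1382 RPKM in MycKO 5 and 6, against 310, 462 and 249.997 RPKM in controls 1, 2 and 3, and 10 of 12 rose in limma. The most abundant of them, Lyz2, was at 734 and 210.5 RPKM in MycKO 5 and 6 and at 102, 219.7 and 55.1 RPKM in controls 1, 2 and 3. The 9 T cell markers summed to 122 and 185 RPKM in MycKO, against 17.0 to 33.0 RPKM in controls, and 3 of 8 tested rose in limma. RNA of CD3 chains was among them, although the cells were sorted as lacking CD3. The most abundant, Cd3g, was at 62.0 and 75.9 RPKM in MycKO 5 and 6 and 8.14 to 14.3 RPKM in controls. Summed B cell markers were at 124 and 104 RPKM in MycKO and 51.6 to 74.3 RPKM in controls, but 0 of 8 passed in limma, in limma-voom or in the authors' deposited table (4 at an unadjusted limma p under 0.05). Red cell markers summed to 372 and 213 RPKM in MycKO and 83.0 to 134 RPKM in controls, and 2 of 4 rose in limma. Cycling cell markers summed to 200 and 85.1 RPKM in MycKO 5 and 6, against 48.9, 241 and 44.3 RPKM in controls 1, 2 and 3, and were thus high in MycKO 5 and control 2. How far RNA of other or of dividing cells contributes to the values of the mitochondrial ribosomal protein genes was not tested, and in bulk RNA fewer cells of a type and less RNA per cell cannot be told apart.

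The stretches of DNA just before the transcription starts of 6 members are given first, since these members lie at the ends of the range of differences described below or carry the E-box, the sequence to which MYC and its partner MAX are known to bind. They are RefSeq sequences of the GRCm38.p6 assembly (mm10), 5′ to 3′ on the gene's strand, cut to the longest run without an annotated exon among the bases before the start. Capitals mark the E-box CACGTG in Mrpl2 and Mrpl20 and the ETS-family motif CCGGAAG in Mrpl43. The other 3 hold none of the 4 motifs searched in the printed stretch. In the windows counted below, Mrps12 holds the ETS and YY1 motifs, Mrps23 the ETS motif and Mrpl37 the E-box and the YY1 motif. Mrpl2 lies at chr17:46646023-46646220 on the plus strand, Mrpl20 at chr4:155802628-155802877 on the plus strand and Mrpl43 at chr19:45006443-45006557 on the minus strand. Mrpl37 lies at chr4:107066869-107066987 on the minus strand, Mrps12 at chr7:28741822-28741991 on the minus strand and Mrps23 at chr11:88204138-88204387 on the plus strand.
Mrpl2: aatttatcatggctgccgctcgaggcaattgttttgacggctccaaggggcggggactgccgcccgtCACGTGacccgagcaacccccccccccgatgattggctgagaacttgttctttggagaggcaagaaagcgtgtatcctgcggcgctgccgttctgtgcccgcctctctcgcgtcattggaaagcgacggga
Mrpl20: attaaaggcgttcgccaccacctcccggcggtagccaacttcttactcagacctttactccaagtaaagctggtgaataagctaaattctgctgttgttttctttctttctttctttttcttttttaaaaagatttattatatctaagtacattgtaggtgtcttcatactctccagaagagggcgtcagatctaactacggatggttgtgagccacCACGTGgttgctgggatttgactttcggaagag
Mrpl43: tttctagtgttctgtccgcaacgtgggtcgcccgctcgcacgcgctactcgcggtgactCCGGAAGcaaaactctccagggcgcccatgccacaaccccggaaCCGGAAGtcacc
Mrpl37: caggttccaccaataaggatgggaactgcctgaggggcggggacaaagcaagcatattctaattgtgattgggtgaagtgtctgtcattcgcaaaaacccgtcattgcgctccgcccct
Mrps12: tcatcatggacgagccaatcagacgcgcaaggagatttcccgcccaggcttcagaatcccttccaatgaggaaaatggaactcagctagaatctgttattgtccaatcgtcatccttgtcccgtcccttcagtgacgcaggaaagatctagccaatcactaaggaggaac
Mrps23: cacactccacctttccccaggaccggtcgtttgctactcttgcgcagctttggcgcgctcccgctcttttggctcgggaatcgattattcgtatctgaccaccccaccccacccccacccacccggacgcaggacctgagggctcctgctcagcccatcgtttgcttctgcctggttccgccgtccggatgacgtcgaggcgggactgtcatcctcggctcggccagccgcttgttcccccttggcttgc

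The E-box was no more frequent around the starts of these genes than around those of all genes. RefSeq windows from 250 bases before to 50 bases after the start were at hand for 69 of the 78 members and for 10384 genes of the table. Both strands were searched, and a gene counted as holding a motif if any of its windows did. The number of windows per gene was not matched between members and all genes. The E-box CACGTG was present in 4 of 43 Mrpl genes (9.30%; Mrpl2, Mrpl20, Mrpl36 and Mrpl37) and in 1 of 26 Mrps genes (3.85%; Mrps18c), against 1197 of the 10384 genes (11.5%). Motifs of 3 factors known to serve mitochondrial genes were counted in the same way. The ETS-family motif CCGGAAG was in 15 of 43 Mrpl genes (34.9%) and 11 of 26 Mrps genes (42.3%), against 19.95% of all genes. The YY1 motif AAGATGGC was in 6 of 43 Mrpl genes (14.0%) and 6 of 26 Mrps genes (23.1%), against 5.29% of all genes. The NRF1 motif was in 10 of 43 Mrpl genes (23.3%) and 3 of 26 Mrps genes (11.5%), against 11.2% of all genes. The ETS and YY1 motifs share the letters AAG, so that one stretch can hold both. These shares are descriptions of short windows without a test, and a match is not a binding site.

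Many of the genes also sit head to head with another gene. In the GENCODE annotation, 33 of 78 members (42.3%) had a protein-coding gene on the other strand whose 5′ end lay within 1000 bases of their own, against 1957 of 12013 genes of the table (16.3%). Several neighbours serve mitochondria too. Mrps12 lies 172 bases from Sars2, the mitochondrial seryl-tRNA synthetase gene, Mrpl36 lies 29 bases from Ndufs6, a subunit of respiratory complex I, and Mrpl43 lies 779 bases from Twnk (Peo1 in the deposited table), the mitochondrial DNA helicase gene. Mrpl46 and Mrps11, one gene of each subunit, are 412 bases apart. Exons of 33 members overlap exons of other genes, 28 of them on the opposite strand. No source used here gives the use of strand in counting, so reads of overlapping genes cannot be told apart with certainty.

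The level of these genes was moderate and varied widely among them. Averaged over the 5 libraries, Mrpl genes lay between 2.39 and 109.8 RPKM with a median of 20.1 RPKM, and Mrps genes between 2.98 and 96.2 RPKM with a median of 20.5 RPKM. The median over all 11190 genes tested was 12.3 RPKM, and over 70 cytosolic ribosomal protein genes it was 708 RPKM. The most abundant Mrpl genes were Mrpl33 at 109.8 RPKM, Mrpl30 at 70.9 RPKM and Mrpl52 at 70.2 RPKM. The least abundant were Mrpl17 at 2.39 RPKM, Mrpl35 at 4.47 RPKM and Mrpl15 at 4.70 RPKM. Among Mrps genes, Mrps21 (96.2 RPKM), Mrps18c (60.1 RPKM) and Mrps16 (58.1 RPKM) stood highest and Mrps25 (2.98 RPKM), Mrps28 (5.77 RPKM) and Mrps18b (5.91 RPKM) lowest. These levels depend on the gene lengths the authors divided by. That length was 466 bases for Mrpl33 and 407 bases for Mrps21, but 6712 bases for Mrpl17 and 6065 bases for Mrps25, whose annotated exons overlap those of Nr2c2 on the other strand.

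The comparison of MycKO with control NK cells asks which of these genes differ when Myc is deleted. None of the 78 members passed the test. On log2(RPKM + 1), limma called 0 of 49 Mrpl genes and 0 of 29 Mrps genes at an adjusted p under 0.05, while 1.34% of all genes tested were called (1.24% higher and 0.0983% lower). The lowest adjusted p of a member was 0.136. Limma-voom on the reads behind the values also called 0 members (2.07% of all genes), with a lowest adjusted p of 0.245. The authors' deposited table called 0 members (3.4% of the 13004 genes listed), with a lowest adjusted p of 0.152. At an unadjusted p under 0.05 there were 8 Mrpl genes, 5 higher and 3 lower, and 2 Mrps genes, 1 higher and 1 lower. That is 12.8% of members, close to the 13.2% of all genes (9.83% higher and 3.35% lower).

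Differences were small on balance and went both ways. The median log2 fold change (MycKO minus control) was 0.08 over Mrpl genes and 0.06 over Mrps genes, against 0.05 over all genes tested. The Mrpl median was 0.0071 without control 2, and the Mrps median was -0.13 without MycKO 5. Of the Mrpl genes 31 were higher and 18 lower in MycKO, and of the Mrps genes 18 were higher and 11 lower. Both MycKO libraries lay above all controls for 9 Mrpl and 3 Mrps genes, where 18.8% of all genes did so. They lay below all controls for 5 Mrpl and 2 Mrps genes, against 10.4% of all genes. The groups overlapped for the other 35 Mrpl and 24 Mrps genes. Both MycKO libraries lay above the control mean for 32 of 78 members (38.8% of all genes) and below it for 13 (25.7% of all genes).

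The precision differed between members. The standard error of a member's log2 fold change was 0.22 at the median, between 0.13 and 0.44. For 37 of 49 Mrpl genes and 22 of 29 Mrps genes the 95% interval lay wholly between -1 and 1. For the other 19 members it reached a change of at least 1 on the log2 scale, down to -1.02 for Mrpl37 and up to 1.84 for Mrps12.

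**Figure D1:**
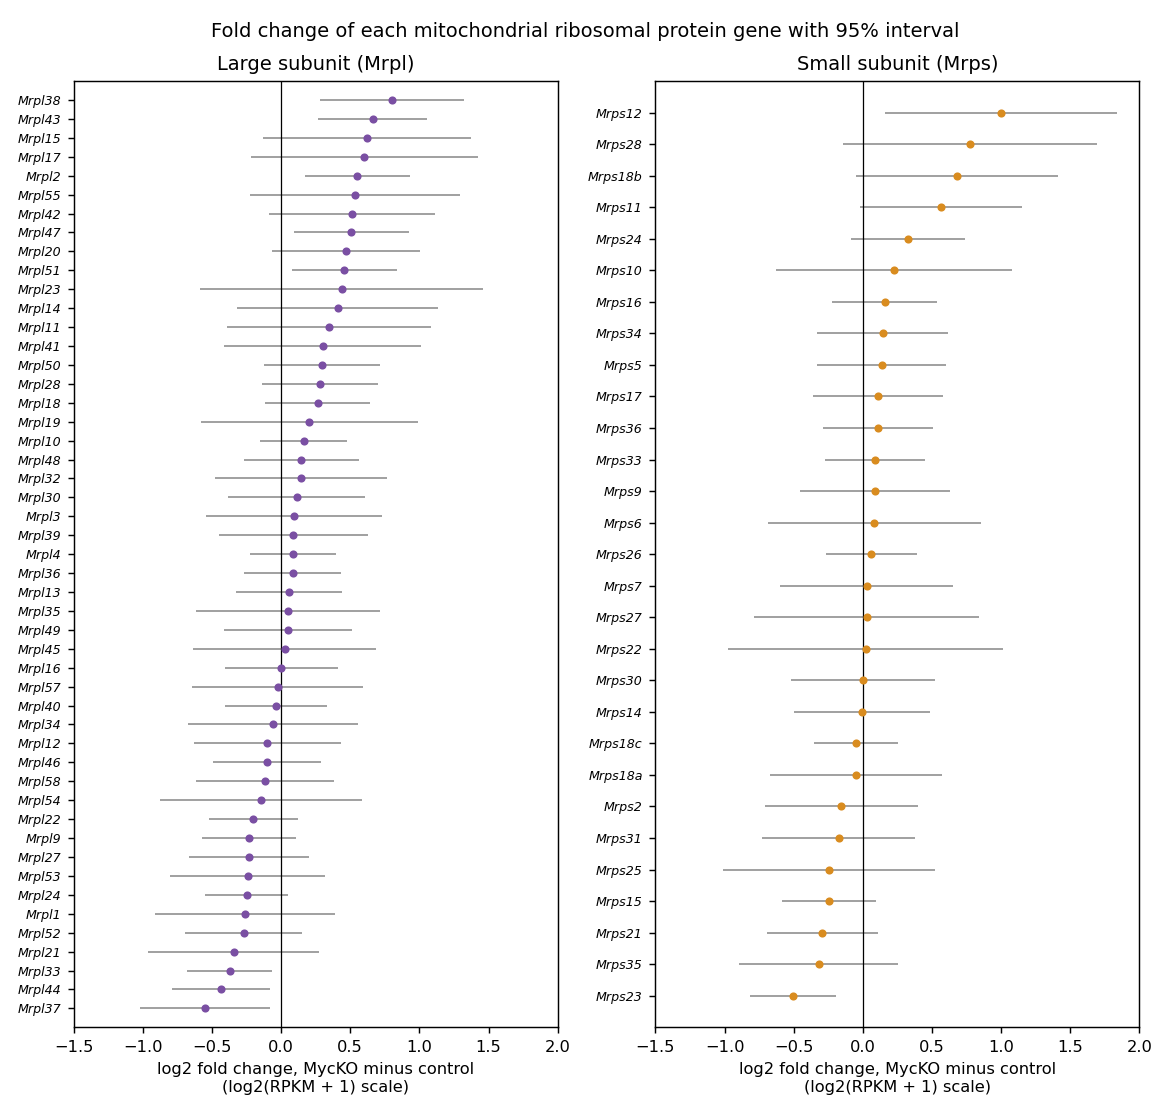
Log2 fold change (MycKO minus control, on the log2(RPKM + 1) scale, horizontal axis) of each of 49 Mrpl genes (left) and 29 Mrps genes (right), with the 95% interval from limma. Points lie on both sides of 0, from -0.55 for Mrpl37 to 0.80 for Mrpl38 and from -0.51 for Mrps23 to 1.00 for Mrps12, and no member passed the adjusted test.

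In the large subunit, the members highest in MycKO were Mrpl38, Mrpl43, Mrpl15 and Mrpl17. Mrpl43 (Entrez 94067; mm10 chromosome 19, 45004829 to 45006442, minus strand), a protein found only in mitochondrial ribosomes, was at 20.7 and 19.6 RPKM in MycKO 5 and 6, against 13.2, 11.2 and 12.8 RPKM in controls 1, 2 and 3. Its log2 fold change was 0.66 (SE 0.17), with an unadjusted limma p of 0.00523 and an adjusted p of 0.136. Both MycKO libraries lay above every control, and its overlap of 507 exon bases with Twnk on the other strand limits the reading of this value. Mrpl38 (chromosome 11, 116131817 to 116138868, minus strand), a mitochondria-specific protein of the central protuberance, was at 17.0 and 13.2 RPKM in MycKO 5 and 6 and at 9.70, 7.12 and 7.83 RPKM in controls 1, 2 and 3. Its log2 fold change was 0.80 (SE 0.22; adjusted p = 0.167 in limma), again without overlap of the groups.

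Mrpl2 (chromosome 17, 46646229 to 46650139, plus strand), whose bacterial counterpart lies beside the peptidyl transferase centre and whose E-box is printed above, was at 26.3 and 21.8 RPKM in MycKO 5 and 6. In controls 1, 2 and 3 it was at 16.7, 14.9 and 16.5 RPKM. The log2 fold change was 0.55 (SE 0.16; adjusted p = 0.191 in limma), and the MycKO libraries lay above all controls. Mrpl47, the counterpart of a bacterial protein at the exit of the peptide tunnel, averaged 22.5 ± 1.12 RPKM in MycKO (SD, n = 2) and 15.6 ± 2.29 RPKM in controls (SD, n = 3), a log2 fold change of 0.51. Mrpl15 (0.62) and Mrpl17 (0.60) were low in level, at 5.68 and 6.56 RPKM and at 3.44 and 2.99 RPKM in MycKO 5 and 6, against 2.37 to 4.94 RPKM and 1.06 to 2.31 RPKM in controls. They did not overlap between groups, and their adjusted p-values in limma were 0.498 and 0.562. Without control 2 the log2 fold change was 0.39 for each of them.

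The lowest in MycKO were Mrpl37, Mrpl44, Mrpl33 and Mrpl21. Mrpl37 (chromosome 4, 107055874 to 107066868, minus strand), found only in mitochondrial ribosomes, was at 16.5 and 14.2 RPKM in MycKO 5 and 6, against 18.6, 27.8 and 23.3 RPKM in controls 1, 2 and 3. Its log2 fold change was -0.55 (SE 0.20; adjusted p = 0.299 in limma), with both MycKO libraries below the lowest control. Mrpl44, a protein with a fold related to RNase III that is needed to assemble the large subunit, was at 15.8 and 16.5 RPKM in MycKO 5 and 6 and 20.6, 22.3 and 23.6 RPKM in controls 1, 2 and 3. The difference of -0.43 (SE 0.15) had an adjusted p of 0.271 in limma, and the groups did not overlap. Mrpl33, the most abundant member, was at 104 and 82.7 RPKM in MycKO, below the 112 to 127 RPKM of controls, and its difference was -0.37 on the log2 scale (adjusted p = 0.281 in limma), or -0.21 without MycKO 6. For Mrpl21 the MycKO libraries differed from each other, at 17.0 and 9.52 RPKM, and its log2 fold change of -0.34 turned to 0.04 without MycKO 6.

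**Figure D2:**
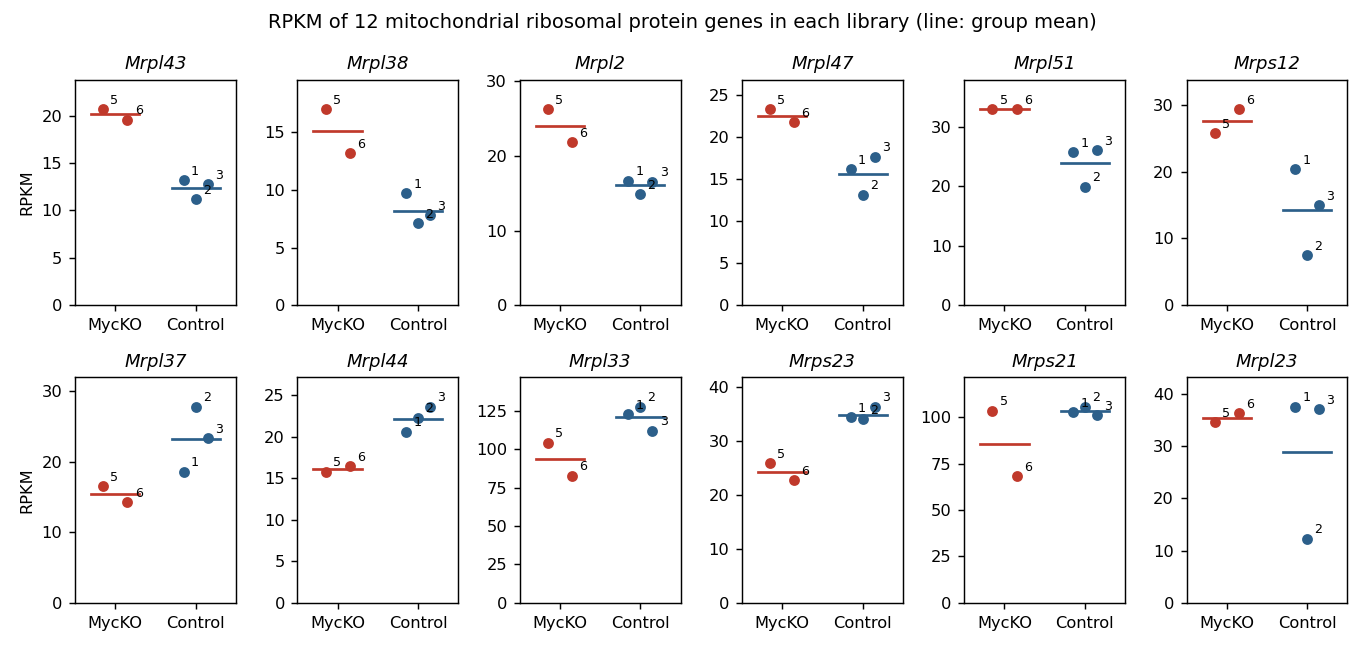
RPKM (vertical axis, from 0) of 12 members in each library, MycKO 5 and 6 in red and controls 1, 2 and 3 in blue, with the group mean as a line. The upper row holds 6 members with higher MycKO means, such as Mrpl43 at 20.7 and 19.6 RPKM against 11.2 to 13.2 RPKM in controls. The lower row holds 5 with lower MycKO means and Mrpl23, whose control 2 lies at 12.3 RPKM.

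In the small subunit, Mrps12 showed the highest value. Mrps12 (Entrez 24030; chromosome 7, 28739641 to 28741820, minus strand), whose bacterial counterpart lines the decoding centre, was at 25.7 and 29.4 RPKM in MycKO 5 and 6, against 20.4, 7.47 and 14.9 RPKM in controls 1, 2 and 3. Its log2 fold change was 1.00 (SE 0.36), with an adjusted p of 0.291 in limma. The groups did not overlap, but control 2 was low, and without control 2 the value was 0.63. Its head-to-head neighbour Sars2 was at 3.93 and 4.08 RPKM in MycKO and 5.201 to 6.41 RPKM in controls, a log2 fold change of -0.42. Mrps28, the counterpart of a bacterial RNA-binding protein, was at 8.63 and 6.85 RPKM in MycKO 5 and 6 and 3.22, 2.67 and 7.46 RPKM in controls 1, 2 and 3. It rested on 34 reads in MycKO 5 and on 35 and 34 reads in controls 1 and 2. The groups overlapped (log2 fold change 0.78, adjusted p = 0.481 in limma). Mrps18b (0.68) and Mrps11 (0.57), a protein of the platform, had adjusted p-values of 0.414 and 0.401 in limma. Without MycKO 5 their log2 fold changes were 0.27 and 0.34, and without MycKO 6 that of Mrps18b was 1.09. Mrps18b was at 10.6 RPKM in MycKO 5 but 5.56 RPKM in MycKO 6, against 3.86 to 4.95 RPKM in controls.

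Mrps23 (Entrez 64656; chromosome 11, 88204388 to 88211507, plus strand), which occurs only in mitochondrial ribosomes, was the lowest small subunit gene in MycKO. It was at 25.9 and 22.7 RPKM in MycKO 5 and 6, against 34.4, 34.0 and 36.3 RPKM in controls 1, 2 and 3. Its log2 fold change of -0.51 (SE 0.13) had an unadjusted limma p of 0.00605 and an adjusted p of 0.147, and lay between -0.42 and -0.60 whichever library was left out. With 273 to 1157 reads per library it was one of the better measured members, and the groups did not overlap. Mrps35 (-0.32), Mrps21 (-0.29) and Mrps15 (-0.25) followed. Mrps15 was at 36.3 and 29.4 RPKM in MycKO 5 and 6, against 42.4, 36.8 and 38.0 RPKM in controls 1, 2 and 3, and its log2 fold change was -0.099 without MycKO 6 and -0.40 without MycKO 5. That of Mrps35 was 0.017 without MycKO 6 and -0.66 without MycKO 5. Mrps21, the most abundant small subunit gene, was at 104 RPKM in MycKO 5 and 68.1 RPKM in MycKO 6, against 101 to 106 RPKM in controls, so that of the MycKO libraries only MycKO 6 lay outside the range of the controls.

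Of the proteins named for the small subunit, Mrps18a and Mrps30 are known from structures of the mammalian mitochondrial ribosome to sit in the large subunit, and Mrps36 is now known as a part of the oxoglutarate dehydrogenase complex. Mrps18a was at 28.0 and 14.2 RPKM in MycKO 5 and 6, against 19.2 to 21.9 RPKM in controls. Mrps30 was at 22.1 and 15.2 RPKM in MycKO 5 and 6, against 16.5 to 22.5 RPKM in controls. Their log2 fold changes were -0.05 and -0.0016, and both turned above 0 without MycKO 6. Mrps36 was at 24.5 and 27.9 RPKM in MycKO and 20.4 to 27.7 RPKM in controls (0.11; adjusted p = 0.887 in limma).

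The MycKO libraries stood on opposite sides of the controls for the small subunit as a whole. Summed over 29 Mrps genes the level was 774 RPKM in MycKO 5 and 660 RPKM in MycKO 6, against 723, 689 and 710 RPKM in controls 1, 2 and 3. The 49 Mrpl genes summed to 1402 and 1351 RPKM in MycKO 5 and 6, against 1362, 1292 and 1356 RPKM in controls 1, 2 and 3, so that the groups overlapped. The ratio of the sums, large over small, was 1.81 and 2.05 in MycKO 5 and 6, on either side of the 1.87 to 1.91 in controls. MycKO 5 was higher than MycKO 6 for 21 of 29 Mrps genes (72.4%) and 27 of 49 Mrpl genes (55.1%), against 49.9% of all genes tested. It was also higher for 49 of 70 cytosolic ribosomal protein genes (70%). There the split between subunits was the reverse, with 33 of 41 Rpl genes (80.5%) and 16 of 29 Rps genes (55.2%). Relative to the control mean, 10 Mrps genes were higher in MycKO 5 and lower in MycKO 6, among them Mrps9 at 35.4 and 19.96 RPKM, and 4 were the reverse. Of Mrpl genes, 8 were higher in MycKO 5 and lower in MycKO 6, and 11 were the reverse. The MycKO libraries thus lay on opposite sides of the control mean for 14 of 29 Mrps and 19 of 49 Mrpl genes. They did so for 3973 of all 11190 genes tested. MycKO 5 had the fewest reads and the higher sums of myeloid and cycling cell markers of the 2. The part of either in the difference between MycKO 5 and 6 was not tested.

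**Figure D3:**
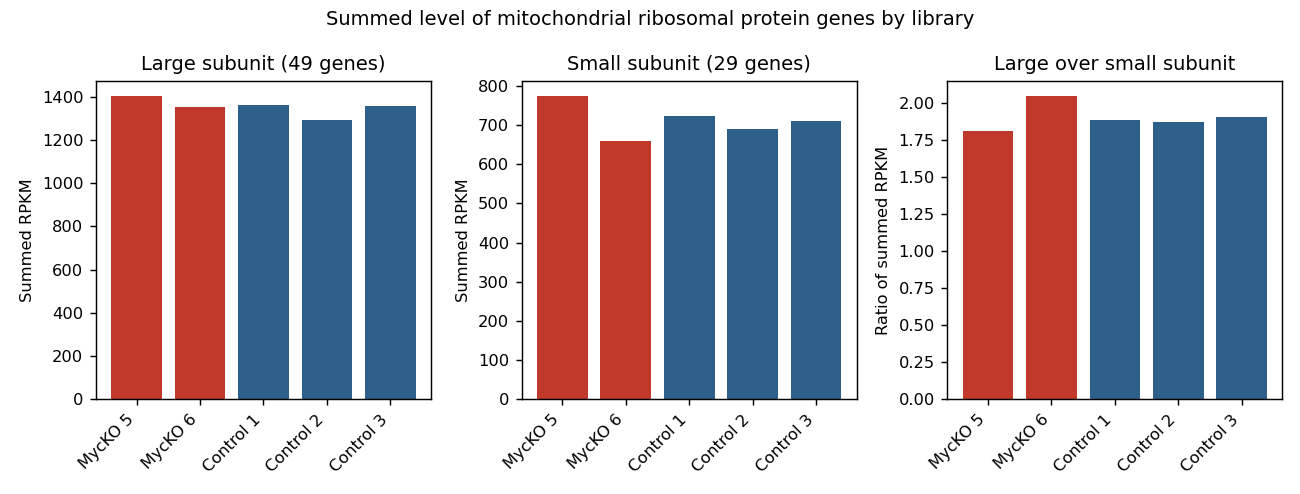
Summed RPKM of 49 Mrpl genes (left) and 29 Mrps genes (middle) and the ratio of these sums (right) in each library, MycKO in red and controls in blue, with axes from 0. Mrps sums of 774 RPKM in MycKO 5 and 660 RPKM in MycKO 6 bracket the 689 to 723 RPKM of controls.

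**Figure D4:**
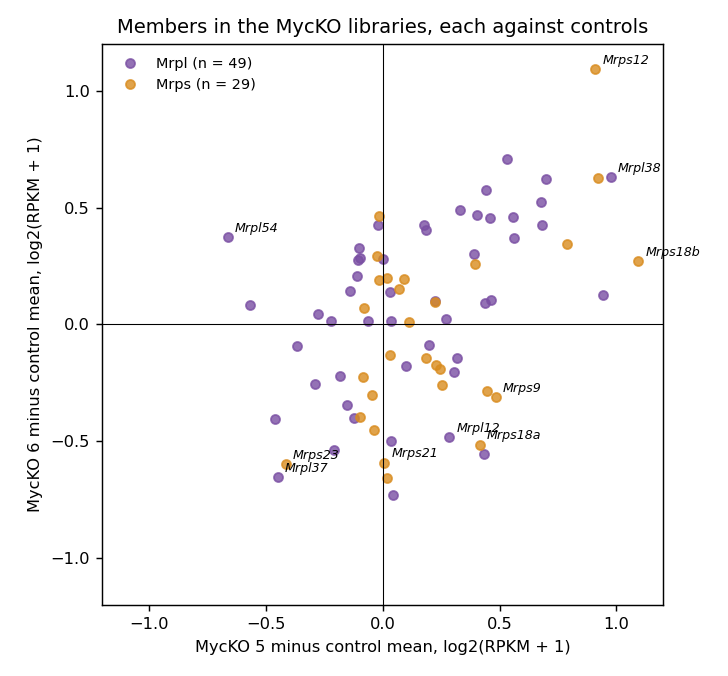
Difference of each member from the control mean in MycKO 5 (horizontal axis) and MycKO 6 (vertical axis), both on the log2(RPKM + 1) scale, with Mrpl in purple and Mrps in orange. Points in the lower right, such as Mrps9 and Mrps18a, were higher in MycKO 5 and lower in MycKO 6; both axes use the same control mean.

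Controls also differed among themselves. Control 2 was the lowest control for 37 of 78 members, where it was so for 36.9% of all genes. By a limit set after the values were seen, in 11 members the highest control was at least 2 times the lowest, and control 2 was the lowest in 8 of these. The share of all genes with such a spread was not counted. On log2(RPKM + 1), the median SD of the controls was 0.25 over members and 0.23 over all genes tested. Mrpl23, the counterpart of a bacterial protein at the tunnel exit, was at 34.6 and 36.3 RPKM in MycKO 5 and 6 and at 37.5, 12.3 and 37.1 RPKM in controls 1, 2 and 3. Only control 2 was low, with 126 reads where controls 1 and 3 had 329 and 309. Mrps22, a mitochondria-specific protein, was at 11.6 and 9.06 RPKM in MycKO and at 15.6, 4.95 and 12.8 RPKM in controls 1, 2 and 3. Mrpl23 and Mrps22 were chosen after their values were seen. Their log2 fold changes of 0.44 and 0.02 had the largest standard errors of their subunits, 0.44 and 0.43.

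Median log2 fold changes were near 0 in each class of protein, with 0.10 for the 30 Mrpl genes with a bacterial counterpart and 0.03 for the 19 without one. They were 0.10 for the 16 Mrps genes with a bacterial counterpart and 0.02 for the 10 without one, Mrps18a, Mrps30 and Mrps36 being left out. The stalk, which recruits translation factors, was picked after its values were seen. Of its genes Mrpl10, Mrpl11, Mrpl12, Mrpl53 and Mrpl54, 2 were higher and 3 lower, with adjusted p-values of at least 0.714. Head-to-head neighbours did not share a direction as a rule. Of 30 members with a neighbour that was tested, 15 had the sign of the neighbour's fold change and 15 the opposite, the pair of Mrpl46 (-0.10) and Mrps11 (0.57) being counted from both sides.

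No gene of 4 lists of genes that work with the mitochondrial ribosome passed the test, where 1.34% of all genes did. At an unadjusted limma p under 0.05 the share of all genes was 13.2%, above that of each list. None of 5 mitoribosomal proteins with other names (such as Dap3 and Ptcd3) passed limma, and none had an unadjusted p under 0.05. Their median log2 fold change was -0.06, with Gadd45gip1 at -0.18 and Ptcd3 at -0.11. Of 30 assembly factors none passed and 2 had an unadjusted p under 0.05 (6.67%), with a median of 0.01. Fastkd2, which binds mitochondrial ribosomal RNA, was at 7.60 and 9.31 RPKM in MycKO 5 and 6, against 1.28, 3.61 and 3.60 RPKM in controls 1, 2 and 3 (log2 fold change 1.37; adjusted p = 0.166 in limma). The GTPase gene Mtg2 was at 0.49. Of 16 translation factors none passed and 1 had an unadjusted p under 0.05 (6.25%), with a median of 0.10. The elongation factor gene Tufm was at 28.9 and 26.2 RPKM in MycKO and 18.5 to 24.2 RPKM in controls, whereas its partner Tsfm was at 14.4 and 15.6 RPKM in MycKO and 17.0 to 23.04 RPKM in controls (adjusted p = 0.374 and 0.389 in limma). Of 24 genes of mitochondrial transcription and RNA processing none passed and 2 had an unadjusted p under 0.05 (8.33%), with a median of 0.16. Gabpa, which encodes the ETS factor GABP alpha, was at 21.9 and 23.7 RPKM in MycKO and 28.7 to 30.8 RPKM in controls (log2 fold change -0.38, adjusted p = 0.271 in limma). Mterf1b was at -1.01, whereas Mterf1a of the same list went the other way, at 0.80. Mterf1a was at 8.41 and 8.31 RPKM in MycKO and 1.84 to 7.93 RPKM in controls. How reads were divided between these genes was not tested. Limma-voom and the authors' deposited table called 0 genes of these 4 lists (2.07% of genes tested and 3.4% of the 13004 genes listed). The RNAs and messages made inside mitochondria were not analysed here, since 0 of 15 such genes were found in the deposited table under their mt- symbols.

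Cytosolic ribosomal proteins are the closest group by function, and their values differed in direction. Of 70 such genes 61 were lower in MycKO and the median log2 fold change was -0.17, where the mitochondrial members had 29 of 78 lower and a median of 0.08. Both MycKO libraries lay below all controls for 35 of the 70 and for 7 of the 78 mitochondrial members (8.97%), against 10.4% of all genes. Limma called 0 cytosolic genes, against 1.34% of all genes. At an unadjusted limma p under 0.05 there were 14 (20%), all lower in MycKO, against 13.2% of all genes (9.83% higher and 3.35% lower). Limma-voom called 1 of the 70, against 2.07% of all genes. The authors' deposited table called 3 of the 70, against 3.4% of the 13004 genes listed. The difference between the lists was not tested.

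**Figure D5:**
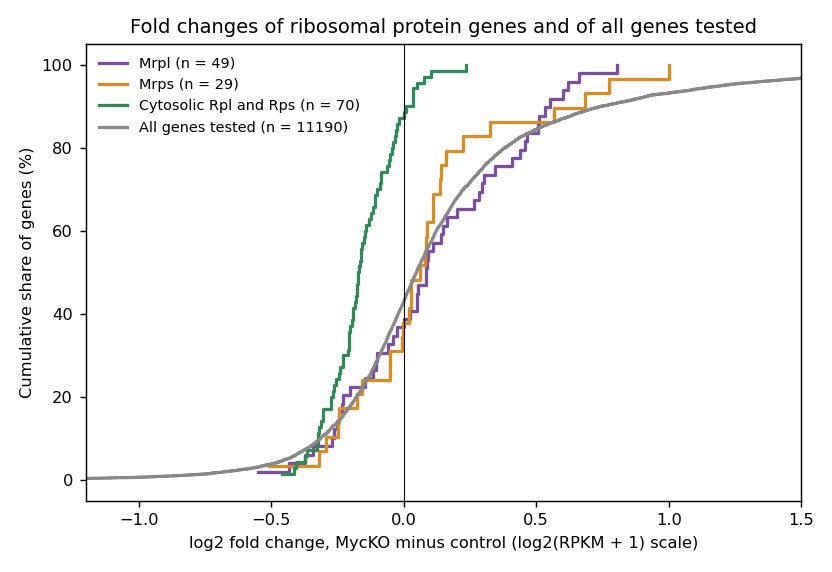
Cumulative share (vertical axis, percent) of log2 fold changes (MycKO minus control, horizontal axis, shown from -1.2 to 1.5) for 49 Mrpl, 29 Mrps and 70 cytosolic ribosomal protein genes and for all 11190 genes tested. The Mrpl and Mrps curves run along the curve of all genes, with medians of 0.08 and 0.06 against 0.05, while that of cytosolic ribosomal proteins lies to the left, with a median of -0.17.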

How the data were processed

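RNA-seq libraries of sorted splenic NK cells (2 MycKO, 3 control) were single-read and strand-specific, per the labels' protocols. TopHat, edgeR and the build mm10 are named without roles or versions, per the submitters' processing notes. Annotation, counting tool and strand setting: not given in the sources used here. The deposited table gives RPKM values per sample, per the file headers. It also gives the authors' mean normalized signal, their fold change (ratio), the log2 of that fold change, and p-values the authors obtained from a test the headers do not name.

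RPKM values and group means allow the reads behind each value and the gene lengths to be worked out; 100% of values came out whole within 0.0001 of a read. No 2 libraries agreed within counting noise (chi-square per degree of freedom of at least 17.8). RPKM was analysed as log2(RPKM + 1) for the 11190 genes that reached 1 RPKM in 2 or more samples. limma 3.58.1 in R 4.3.3 (two-sided; trended variance; 3 residual degrees of freedom and 4.41 from the prior) was fitted to all 5 libraries. P-values were adjusted by Benjamini-Hochberg across the 11190 genes tested, at a threshold of 0.05. The log2(RPKM + 1) scale understates changes of low genes. The procedure was tested on simulated data with an assumed spread between libraries, which was not estimated from these data. True changes were set only in genes of at least 5 RPKM in all 5 libraries. It called 1.6% of true log2 changes of 0.5, 37.2% of changes of 1 and 100% of changes of 2. At that assumed spread, changes of the size seen in most members would mostly be missed. The rates do not cover members of lower level, such as Mrpl17 at 2.39 RPKM. Intervals are at the 95% level.

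Members and lists were chosen with earlier results of these data known. Named per subunit are the 3 highest and 3 lowest in level, the 4 highest and 4 lowest in fold change, Mrps18a, Mrps30 and Mrps36, and the 2 with the smallest p of each pathway list. Others were chosen after their values were seen. The promoters printed were chosen likewise. Positions are from GENCODE vM21 (GRCm38, the same assembly as mm10), promoters from RefSeq. Alternatives were another scaling, pseudocount, filter and test, the authors' p-values and leaving out each library. Python 3.11.15 and matplotlib 3.10.9 served for figures.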

Additional observations from a re-analysis of the deposited data

How the results depend on the processing

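The count of 0 members called held in limma under every alternative run (scaling by median of ratios, pseudocount 0.1, all genes kept, 5 RPKM required in 2 samples, each library left out, limma-voom) and in the authors' deposited table. The number of genes called among all was 150 in the fit reported, 80 with a pseudocount of 0.1, 232 in limma-voom, 442 in the authors' deposited table and 0 to 215 with a library left out. It was 0 without MycKO 5 and 0 without MycKO 6, where the lone MycKO library is assumed to vary like the controls, 34 without control 3 and 40 without control 1. The Mrpl median log2 fold change (0.08) was 0.032 under median-of-ratios scaling, where the median of all genes moved from 0.05 to -0.00086, and 0.0071 to 0.11 with a library left out. The Mrps median (0.06) was 0.0095 under median-of-ratios scaling, 0.029 in limma-voom and -0.13 to 0.091 with a library left out. Of 267 values of named members under the alternatives, 253 kept their direction. Mrpl35 (0.05) was at -0.087 in limma-voom and -0.20 to 0.30 with a library left out. With a library left out, ranges that crossed 0 were -0.73 to 0.044 for Mrpl21, -0.10 to 0.33 for Mrpl30, -0.52 to 0.41 for Mrps18a, -0.13 to 0.030 for Mrps18c, -0.59 to 0.0059 for Mrps21, -0.26 to 0.25 for Mrps30, -0.66 to 0.017 for Mrps35 and -0.0068 to 0.20 for Mrps36. Of other named genes, the cycling marker Top2a (0.39) ranged from -0.0745 to 1.154. The causes were not tested. No paired analysis was possible because the groups share no replicate number. The median member rested on 149 reads in MycKO 5, a counting error of 8.19%, and intervals cover the spread between 5 libraries only.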
